A study of Mus musculus with 12 samples.

Results

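Messenger RNA of 47 genes of the oligodendrocyte lineage and of myelin was measured in hippocampal tissue and compared between WT and USF-1 KO animals. The 47 genes were chosen by name among the 55487 genes of the table of normalised counts, and they comprise proteins of the myelin sheath, transcription factors of the lineage, enzymes, receptors, cytoskeletal proteins, secreted proteins and other transcripts enriched in these cells. Oligodendrocytes are the glial cells that wrap axons of the central nervous system with myelin, a stack of tightly pressed membrane layers held together by a small set of abundant proteins and lipids. They arise from dividing precursors, and transcription factors such as Olig2, Sox10 and Myrf switch on the myelin genes as the cells mature. In the hippocampus, most myelin lies in fibre tracts such as the alveus and along axons that enter and leave the cell layers. The transcription factor USF-1 recognises the DNA word CACGTG, known as an E-box, and mice without it served the study as a model of activated brown fat.

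RNA of the hippocampus was sequenced with 1 library per mouse, from 6 WT and 6 USF-1 KO mice on the C57Bl/6JRccHsd background aged 3 to 4 months. By the labels, the WT group held 4 females and 2 males and the KO group 2 females and 4 males. The mice were littermates from matings of heterozygous animals, so the KO allele was present from birth in all tissues, and a change inside oligodendrocytes cannot be told apart from a change that starts in other cells. Mice are named here by genotype and animal number. Values are normalised counts, that is, reads on a gene divided by the size factor of the library, and a log2 fold change is the KO mean minus the WT mean of log2(normalised count + 1). In bulk tissue, fewer oligodendrocytes and less RNA per oligodendrocyte cannot be told apart.

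Because USF-1 binds CACGTG, promoters of the 47 genes were searched for this word, which is its own reverse complement and so reads the same on both strands. The windows ran from 250 bases before to 50 bases after each RefSeq gene start on GRCm38.p6. Such a window was listed for 36 of the 47 genes, and 3 of these 36 genes (8.33%) held the word, against 2187 of 27025 genes with a listed window (8.09%). No window was listed for Mbp, Olig1, Sox10, Myrf, St18, Car2, Bcas1, Trf, Cryab, Evi2a and Ndrg1, so these were not searched. The 3 genes with the word were Anln, Ninj2 and Nkx2-2. Their 250 bases before the start are shown because, of the 36 genes searched, they alone held the E-box, which is in capitals. Those of Prune2 and Tmem125 are shown because, of the 4 genes called below, Prune2 had the lowest adjusted p and Tmem125 the largest fold change, and neither window held the word. Each sequence is written 5′ to 3′ on the strand of its gene.
Anln (chr9:22389207-22389456, reverse strand): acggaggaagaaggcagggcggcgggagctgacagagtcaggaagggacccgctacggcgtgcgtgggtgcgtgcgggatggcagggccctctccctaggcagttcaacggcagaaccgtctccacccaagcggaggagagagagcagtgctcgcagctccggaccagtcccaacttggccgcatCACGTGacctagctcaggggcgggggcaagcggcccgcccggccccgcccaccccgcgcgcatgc
Ninj2 (chr6:120093130-120093379, forward strand): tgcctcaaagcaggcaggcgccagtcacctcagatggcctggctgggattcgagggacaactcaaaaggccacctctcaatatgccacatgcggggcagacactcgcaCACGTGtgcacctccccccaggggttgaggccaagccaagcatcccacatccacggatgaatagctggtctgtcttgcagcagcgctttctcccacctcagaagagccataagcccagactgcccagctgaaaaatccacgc
Nkx2-2 (chr2:147186403-147186652, reverse strand): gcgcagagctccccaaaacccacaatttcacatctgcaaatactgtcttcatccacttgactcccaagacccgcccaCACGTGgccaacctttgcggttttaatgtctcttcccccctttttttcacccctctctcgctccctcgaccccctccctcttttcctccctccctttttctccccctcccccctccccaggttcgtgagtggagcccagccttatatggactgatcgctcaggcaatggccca
Prune2 (chr19:16955868-16956117, forward strand): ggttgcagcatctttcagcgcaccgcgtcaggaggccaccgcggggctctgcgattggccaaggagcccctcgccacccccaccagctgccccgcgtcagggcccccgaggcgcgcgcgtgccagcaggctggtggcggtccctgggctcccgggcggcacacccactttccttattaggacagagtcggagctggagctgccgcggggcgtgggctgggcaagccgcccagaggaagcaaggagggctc
Tmem125 (chr4:118543727-118543976, reverse strand): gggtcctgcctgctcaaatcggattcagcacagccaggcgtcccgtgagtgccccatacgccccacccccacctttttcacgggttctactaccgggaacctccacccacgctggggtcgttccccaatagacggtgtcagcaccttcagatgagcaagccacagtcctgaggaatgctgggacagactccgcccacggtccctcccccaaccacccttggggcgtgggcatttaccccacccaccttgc
The E-box began 65 bases before the start in Anln, 142 bases in Ninj2 and 173 bases in Nkx2-2. Absence of the word from a window says nothing of USF-1 binding elsewhere.

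The targeted gene, Usf1, matched the labels. Its normalised count lay between 842 and 1583 in WT mice and between 117 and 163 in KO mice, and the KO mean was 9.98% of the WT mean (log2 fold change -3.29, SE 0.14, limma with Benjamini-Hochberg adjustment, adjusted p = 1.77e-08). In a two-sided exact permutation test over the 924 assignments of the mice, p was 0.00216, which is the lowest attainable value. Between 23369928 and 32091173 reads per WT mouse and between 21679622 and 30859179 per KO mouse were counted on genes. Of 10 genes of excitatory neurons, among them the granule cell factor Prox1 and the pyramidal cell gene Wfs1, 10 passed the limit on low counts. Of the 18221 genes whose mean normalised count reached 10, 135 were lower and 29 higher in KO mice at an adjusted p under 0.05.

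All 47 genes passed the limit on low counts, and all 47 had a negative log2 fold change, whereas 50.2% of all genes tested did. The median over the 47 genes was -0.58 and that over all genes tested was -0.00. The members' fold changes ran from -0.99 for the protease Klk6 to -0.06 for the transcription factor St18. Of the 47 genes, 4 fell in KO mice at an adjusted p under 0.05 in limma (8.51%, against 0.741% of all genes tested), and 0 rose (0.159% of all genes tested), with 0 higher also at an unadjusted p under 0.05 (5.92% of all genes) and by edgeR and DESeq2. At an unadjusted p under 0.05, 43 of the 47 genes (91.5%) were lower, against 7.6% of all genes. In 42 of the 47 genes, all 6 KO mice lay below the WT mean. Every KO mouse lay below every WT mouse for 3 genes, Prune2, Cryab and Olig1, which is 6.38% of the 47 genes against 1.08% of all genes tested.

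The mean level of the 47 genes varied between mice of the same genotype as well as between genotypes. Averaged over the 47 genes after centring each on its mean, the log2 level of the WT mice was 0.28 ± 0.36 (SD, n = 6). That of the KO mice was -0.28 ± 0.24 (SD, n = 6). The 6 KO mice spanned -0.57 to -0.03. Of the WT mice, 5 lay between 0.24 and 0.61, above every KO mouse, and WT 522 lay at -0.39, among the KO mice. Read as a share of all normalised counts, the 47 genes took 0.671% to 0.872% in those 5 WT mice, 0.411% in WT 522 and 0.367% to 0.563% in the KO mice. WT 490 held the highest WT value in 24 genes and WT 547 in 20, while KO 530 held the lowest KO value in 23 and KO 553 in 21. KO 553, KO 530 and WT 522, the 3 mice with the lowest mean level of these genes, also had the 3 lowest totals of reads on genes, 21679622, 23293574 and 23369928. WT 490, with the highest mean level, had the highest total, whereas KO 488, with the next highest total, 30859179, lay at -0.06. The part of depth in these levels was not tested.

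**Figure D1:**
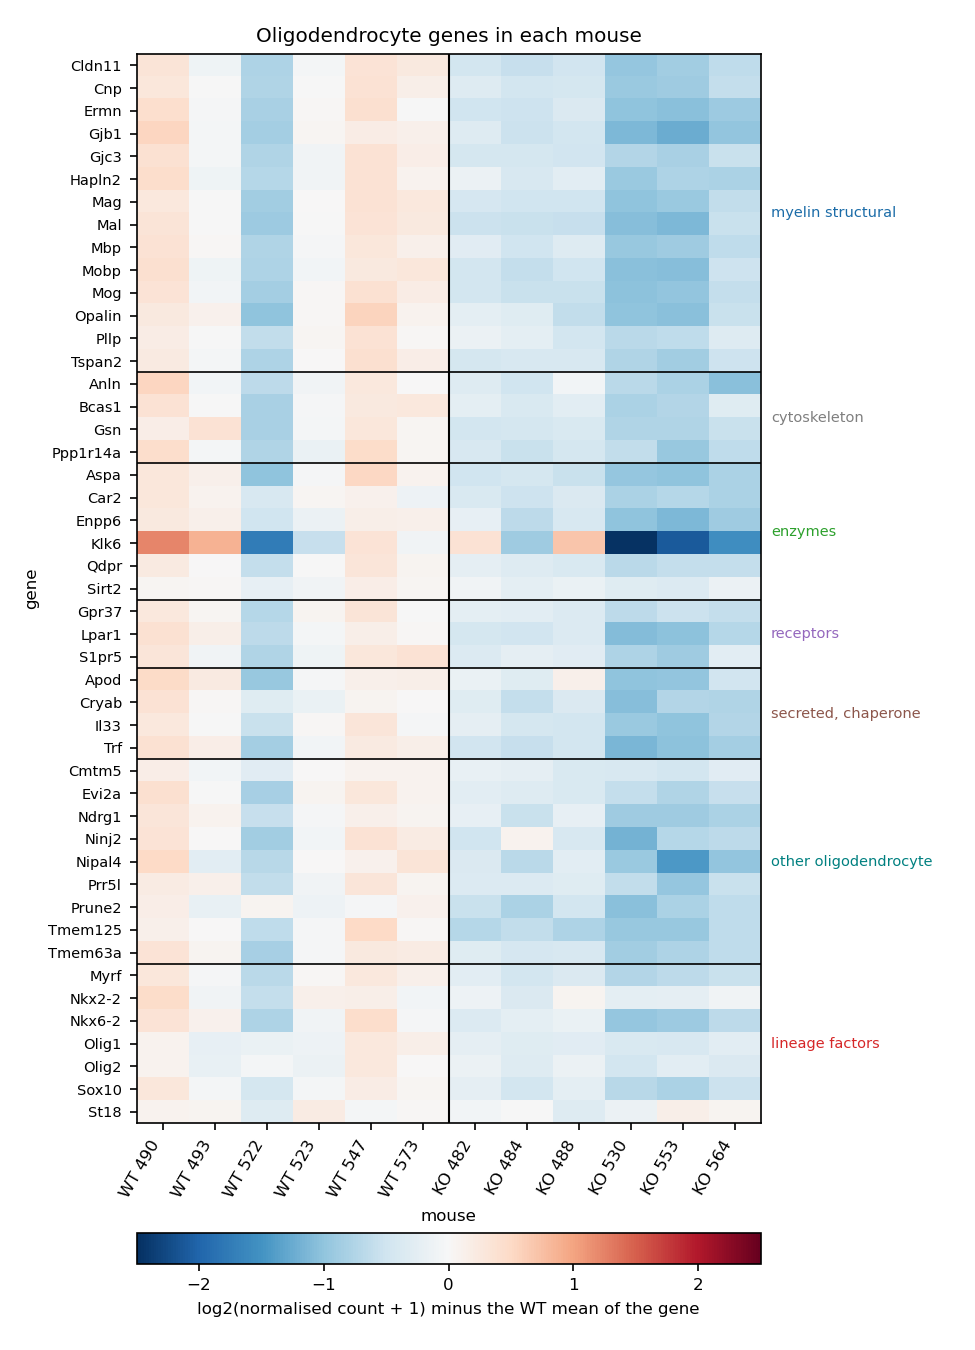
Colour shows log2(normalised count + 1) of each gene in each mouse minus the gene's mean over the 6 WT mice, with genes in rows grouped by role and mice in columns. The WT 522 column is blue for nearly all genes, like the 6 KO columns to the right of the line, and the row of St18 is close to white.

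Prune2, which encodes a protein with a BCH domain, had the lowest adjusted p of the 47 genes. Its normalised count had a lowest, median and highest value of 1501, 1730 and 1903 in WT mice and 831, 1044 and 1243 in KO mice. The genotypes did not overlap, and WT 522, at 1794, sat in the upper part of the WT range. The KO mean was 61.4% of the WT mean (log2 fold change -0.71, SE 0.09, limma adjusted p = 0.00193), and Prune2 passed in 23 of 25 alternative analyses.

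Tmem125, a transmembrane protein of little known function, ranged from 120.4 to 267 in WT mice around a median of 189.5 and from 96.3 to 122 in KO mice, with a median of 112. The genotypes overlapped only through WT 522, the lowest WT mouse, which lay under KO 484. The log2 fold change was -0.77 (SE 0.15, limma adjusted p = 0.0265). Car2, a carbonic anhydrase that forms bicarbonate, lay between 3628 and 5878 in WT mice (median 5045) and between 2778 and 3758 in KO mice (median 3153). Here too WT 522 was the lowest WT mouse, under the 2 highest KO mice. Its log2 fold change was -0.59 (SE 0.11, limma adjusted p = 0.0253).

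Cryab, the small heat shock chaperone alpha-B crystallin, had a lowest, median and highest value of 1974, 2485 and 3138 in WT mice and 1159, 1534 and 1967 in KO mice, so that the lowest WT mouse stood just above the highest KO mouse. The log2 fold change was -0.64 (SE 0.13, limma adjusted p = 0.0313). Cryab passed in 11 of 25 alternative analyses, against 16 for Tmem125 and 14 for Car2. Of its exon bases, 17.0% are shared with Hspb2 on the opposite strand, and the sources used here do not say whether reads were counted by strand. The number of genes called among the 47 depended on individual mice. Without WT 490, KO 530, KO 553 or KO 564 in turn, only Prune2 passed, without WT 523, WT 547, the other WT female or KO 484 in turn 2 genes passed, and without WT 522 41 genes passed. Over all genes tested, the number called lower ran from 55 to 407 when each mouse was left out in turn. DESeq2 on the recovered reads called 38 of the 47 genes lower, against 2.86% of all genes, and edgeR called 4, against 0.697%.

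**Figure D2:**
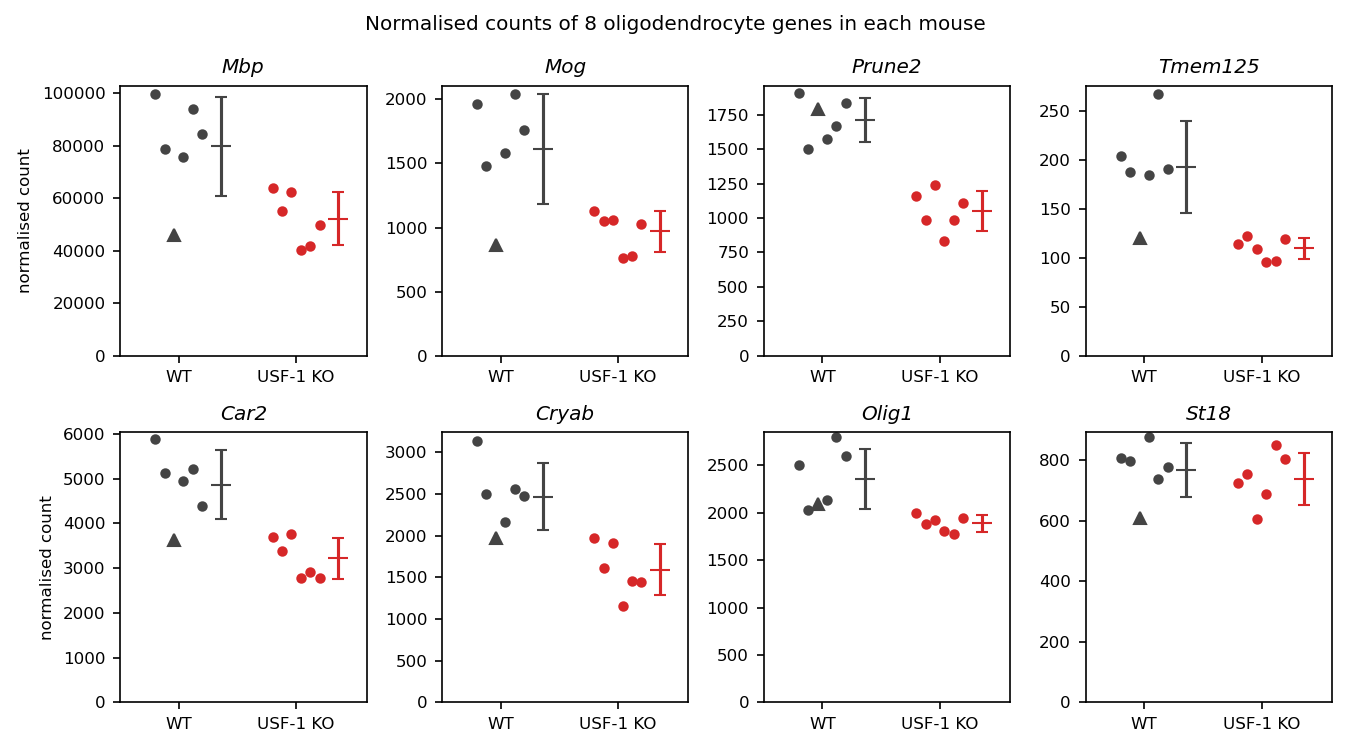
Normalised counts of 8 genes in each WT mouse (dark) and each USF-1 KO mouse (red), with the mean and SD of the 6 mice at the right of each group and WT 522 drawn as a triangle. WT 522 lies at the level of the KO mice for Mbp (46239) and Mog (862) but among the other WT mice for Prune2 (1794) and Olig1 (2098), and the genotypes overlap throughout for St18.

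The 14 genes for structural proteins of the sheath had log2 fold changes from -0.78 to -0.41, with a median of -0.64, and 0 of 14 passed the limma test (adjusted p from 0.0846 to 0.215) or edgeR, although 14 of 14 had an unadjusted p under 0.05 and DESeq2 called 13. Mbp, whose protein seals the cytoplasmic faces of compact myelin, was the most abundant of the 47 transcripts, with 9435 normalised counts per kb of exon in the WT mean. Its normalised count had a lowest, median and highest value of 46239, 81713 and 99872 in WT mice and 40450.4, 52574 and 63877 in KO mice. WT 522 fell inside the KO range, while the other 5 WT mice, from 75935 upwards, stood above every KO mouse. The KO mean was 65.5% of the WT mean (log2 fold change -0.59, SE 0.17, limma adjusted p = 0.129).

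The same arrangement was found for the other structural genes. Mag, an adhesion protein of the membrane that faces the axon, spanned 3099 to 7342 around a median of 6261 in WT mice and 2825 to 4272 around a median of 3872 in KO mice (log2 fold change -0.66, SE 0.18). Mog, which sits on the outer surface of the sheath, had WT values from 862 to 2039, with a median of 1672, and KO values from 765 to 1133, with a median of 1039.9 (log2 fold change -0.70, SE 0.18). For Mobp, a small basic protein of compact myelin, the WT mice spanned 3827 to 8657 around a median of 7011 and the KO mice 3120 to 4786 around a median of 4448 (log2 fold change -0.70, SE 0.18). In each of these the only overlap came from WT 522.

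Cnp, which keeps cytoplasmic channels of the sheath open, ranged from 5208 to 11226 in WT mice around a median of 9214 and from 4635 to 7012 in KO mice, with a median of 6076 (log2 fold change -0.60, SE 0.16). Cldn11, the claudin of the tight junctions between myelin layers, ranged from 1903 to 4128 in WT mice around a median of 3522 and from 1665 to 2379.8 in KO mice, with a median of 2143 (log2 fold change -0.66, SE 0.17). Mal, a proteolipid of myelin membrane domains, ranged from 3385 to 8021 in WT mice around a median of 6926 and from 2926 to 4386 in KO mice, with a median of 4255 (log2 fold change -0.73, SE 0.19). The limma adjusted p of these 6 genes, Mag to Mal, lay between 0.0846 and 0.115. Gjb1, a connexin of the gap junctions within the sheath and the only one of the 47 genes on the X chromosome, had the largest structural fold change, -0.78 (SE 0.21, limma adjusted p = 0.114), with 195, 376 and 512 as the lowest, median and highest WT values and 149, 211 and 282 in KO mice. The smallest was that of Pllp, a myelin proteolipid, at -0.41 (SE 0.14), and 54.2% of the exon bases of Pllp are shared with Gm45767 on the opposite strand. Opalin, Tspan2, Ermn, Hapln2 and Gjc3, which encode further membrane, cytoskeletal and matrix proteins of the sheath, lay between -0.73 and -0.55.

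The 7 transcription factors of the lineage had smaller differences, with a median log2 fold change of -0.31 and a range of -0.55 to -0.06, and 0 of 7 passed the limma test or edgeR (5 of 7 at an unadjusted p under 0.05, and 4 with DESeq2, Olig1, Olig2, Sox10 and Myrf). Olig1, a basic helix-loop-helix factor needed for myelin repair, was the only factor without overlap between genotypes. Its lowest, median and highest normalised counts were 2032, 2316 and 2796 in WT mice and 1775, 1906 and 2001 in KO mice (log2 fold change -0.31, SE 0.07, limma adjusted p = 0.0734). Its neighbour Olig2, which specifies the lineage, ranged from 542 to 745 in WT mice around a median of 611 and from 446 to 554 in KO mice, with a median of 505 (log2 fold change -0.29, SE 0.08, limma adjusted p = 0.115). Only WT 493, the lowest WT mouse at 542, lay below a KO mouse for Olig2.

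Sox10 and Myrf act later and bind myelin genes directly. Sox10 had WT values from 1144 to 1888, with a median of 1546, and KO values from 898 to 1323, with a median of 1089 (log2 fold change -0.49, SE 0.12, limma adjusted p = 0.0767). Myrf had WT values from 1568 to 3043, with a median of 2631, and KO values from 1497 to 2080, with a median of 1762 (log2 fold change -0.50, SE 0.14, limma adjusted p = 0.115). The homeobox factor Nkx6-2 had the largest fold change of the factors, -0.55 (SE 0.20, limma adjusted p = 0.234), with 85.2 to 198 in WT mice around a median of 151 and 73.9 to 130.2 in KO mice around a median of 103. Sox10, Myrf and Nkx6-2 thus lay closer to the structural genes than did the other 4 factors.

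Nkx2-2, the homeobox factor of early oligodendrocyte differentiation whose promoter carries the E-box, was expressed at low level. It had a lowest, median and highest value of 65.9, 102 and 138 in WT mice and 77.4, 88.3 and 105 in KO mice, so that the KO mice lay inside the WT range (log2 fold change -0.16, SE 0.15, limma adjusted p = 0.679). The fold change of Nkx2-2 was -0.28 without WT 522 and -0.07 without WT 490. St18, a zinc finger factor, overlapped between genotypes from end to end, with 609 to 877 in WT mice around a median of 786 and 606 to 849 in KO mice around a median of 739. Its KO mean was 96.1% of the WT mean (log2 fold change -0.06, SE 0.09, limma adjusted p = 0.827). Of their exon bases, Nkx6-2 shares 12.9%, Nkx2-2 9.67% and Olig1 7.26% with genes on the opposite strand. The fold change of St18 lay between -0.12 (without WT 522) and -0.00 (without KO 488) when each mouse was left out, and it was -0.24 in females alone and 0.027 in males alone.

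Ranked by departure from the common shift, the median fold change of the 47 genes, 22 genes lay within 0.1 of it on the log2 scale and 38 lay within 1 standard error of their own fold change. Departures over 2 standard errors were found for 6 genes, and all 6 had a smaller difference than the common shift. They were St18 (departure 0.52), Nkx2-2 (0.41), Sirt2 (0.36), Olig2 (0.29), Olig1 (0.26) and Cmtm5 (0.25), so that 4 of the 6 were transcription factors. At the other end stood Klk6 (-0.42), Nipal4 (-0.20), Gjb1 (-0.20), Tmem125 (-0.20) and Trf (-0.18), none of which departed by more than 2 standard errors. These standard errors hold the variation between mice that the genes share, so they are not the error of a departure. Levels were also taken relative to the mean of the other members in each mouse. KO minus WT was then -0.20 for Trf (SD 0.11 in WT and 0.06 in KO mice) and -0.22 for Gjb1 (0.14 and 0.16). It was 0.26 for Olig1 (0.28 and 0.19) and 0.28 for Olig2 (0.33 and 0.18). The mean fold change was -0.34 over the 7 factors and -0.63 over the 14 structural genes, a difference of 0.30, which lay between 0.26 and 0.37 when each mouse was left out in turn. In each mouse, the mean centred level of the factors minus that of the structural genes lay between 0.01 and 0.36 in KO mice and between -0.29 and -0.15 in 5 WT mice, and was 0.22 in WT 522.

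**Figure D3:**
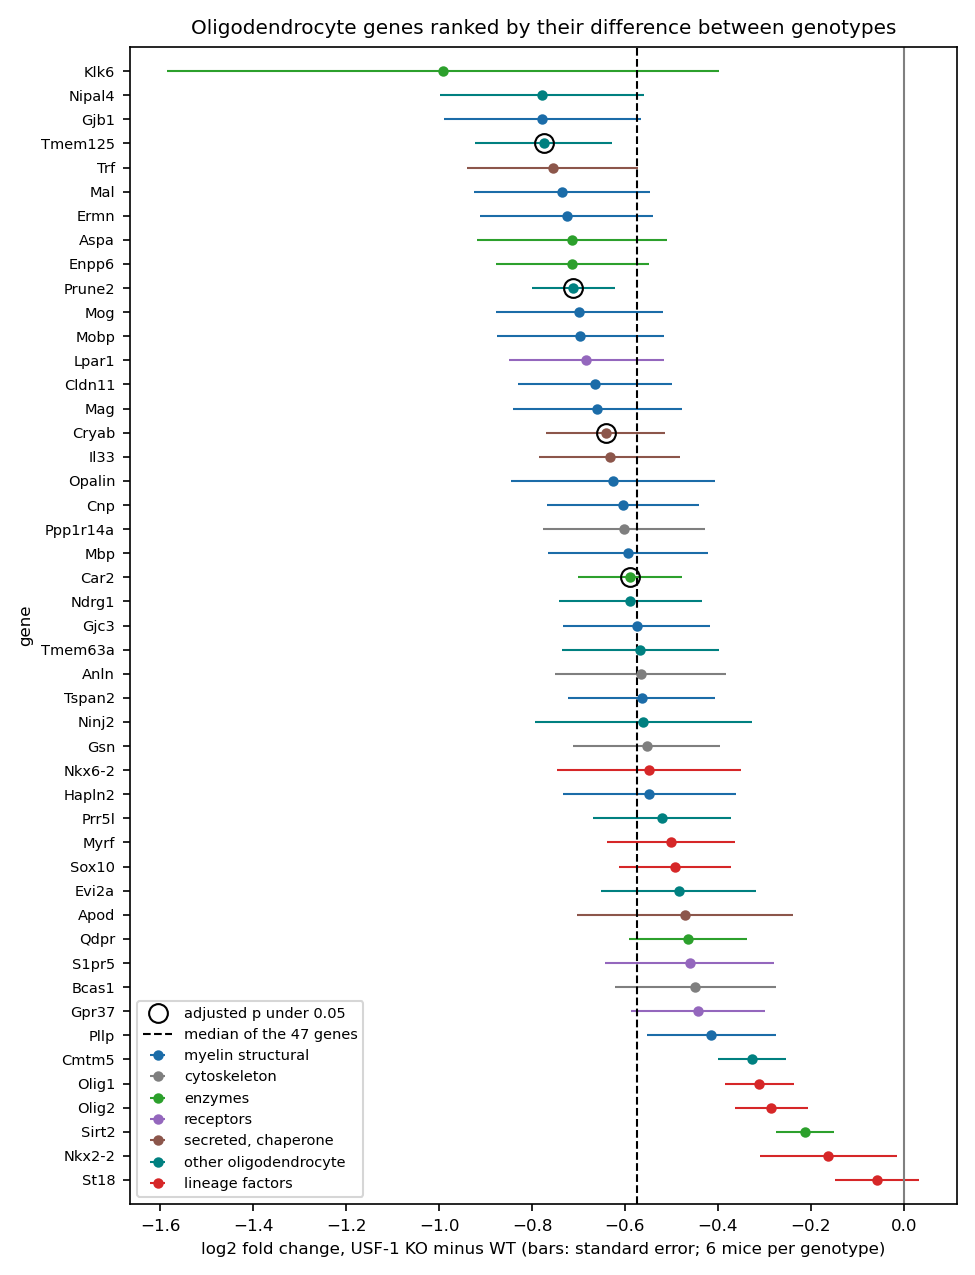
Log2 fold change of each of the 47 genes (USF-1 KO minus WT, 6 mice per genotype) with its standard error, ordered from Klk6 (-0.99) to St18 (-0.06) and coloured by role. Circles mark the 4 genes with an adjusted p under 0.05, and 4 of the 6 points nearest to 0 (St18, Nkx2-2, Olig2 and Olig1) are lineage factors.

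Among the 6 enzymes, Car2 alone passed in limma and edgeR, and DESeq2 called 5, all but Klk6. Klk6, a secreted serine protease, had the largest fold change but also the largest error. It had few counts, with 7.95, 32.3 and 69.2 as lowest, median and highest value in WT mice and 4.48, 12.3 and 48.0 in KO mice, and the genotypes overlapped widely (log2 fold change -0.99, SE 0.59, limma adjusted p = 0.498). Sirt2, a tubulin deacetylase that neurons also express, differed least, from 3323 to 4302 in WT mice around a median of 3955 and from 3043 to 3629.9 in KO mice around a median of 3342 (log2 fold change -0.21, SE 0.06, limma adjusted p = 0.133). Aspa, which cleaves N-acetylaspartate, Enpp6, a choline phosphodiesterase of newly formed oligodendrocytes, and Qdpr, which recycles tetrahydrobiopterin, had log2 fold changes of -0.71, -0.71 and -0.46. Of the exon bases of Qdpr, 18.6% are shared with an opposite strand gene.

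Trf, the iron carrier transferrin, had a lowest, median and highest value of 4679, 9377 and 10939 in WT mice and 3827, 5145 and 6129 in KO mice, with only WT 522 among the KO values (log2 fold change -0.76, SE 0.18, limma adjusted p = 0.0767). Since 63.5% of its exon bases are shared with Gm20425 on the same strand, its count is uncertain. The lipocalin Apod and the alarmin Il33, the other genes beside Trf and Cryab in the secreted and chaperone group, had fold changes of -0.47 and -0.63. Among the 3 receptors, Lpar1, which binds lysophosphatidic acid, stood at -0.68 (SE 0.17, limma adjusted p = 0.0775), the orphan receptor Gpr37 at -0.44 and the sphingosine phosphate receptor S1pr5 at -0.46. The 4 cytoskeletal genes, namely the septin-binding anillin Anln, the actin-severing gelsolin Gsn, Bcas1 of early myelinating cells and the phosphatase inhibitor Ppp1r14a, lay between -0.60 and -0.45. Of these receptor and cytoskeletal genes 0 passed the limma test or edgeR, whereas 3 of 3 and 4 of 4 had an unadjusted p under 0.05 and DESeq2 called 2 and 3.

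Of the 9 remaining genes, Prune2 and Tmem125 passed. Nipal4, a magnesium transporter-like protein, stood next to Klk6 at the lower end of the ranking, with 90.9 to 208 in WT mice around a median of 153 and 53.4 to 121 in KO mice around a median of 83.9 (log2 fold change -0.78, SE 0.22, limma adjusted p = 0.121). Cmtm5, a MARVEL domain protein, had a small fold change with a small error, -0.33 (SE 0.07, limma adjusted p = 0.0557). Ndrg1, Tmem63a, Ninj2, Prr5l and Evi2a lay between -0.59 and -0.48, and 19.2% of the exon bases of Evi2a are shared with Evi2 on the same strand. Per kb of exon, the most abundant transcripts after Mbp in the WT mean were Qdpr with 2629 normalised counts per kb, Trf with 2616, Cnp with 2480 and Mal with 2370, and the least abundant was Klk6 with 23.7.

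WT 522 was the lowest WT mouse in 44 of the 47 genes. Its value lay within the KO range in 38 genes, below every KO mouse in 5 (Nkx2-2, Evi2a, Gpr37, Gsn and Bcas1) and above every KO mouse in 4 (Prune2, Olig1, Olig2 and Cryab). Relative to the other 5 WT mice, its log2 level was lower by a median of 0.93 over the structural genes and 0.52 over the factors, and the differences ran from -2.11 for Klk6 to 0.09 for Prune2. The KO mean was below the other 5 WT mice by a median of 0.82 over the structural genes and 0.34 over the factors. Both WT 522 and the KO mice thus had a smaller difference in the factors than in the structural genes. Prune2 stood apart, since its level in the KO mice was 0.70 below that of the other 5 WT mice while WT 522 was not lower. Cryab was lower by 0.70 in the KO mice and by 0.37 in WT 522, Olig1 by 0.34 and 0.19, and Olig2 by 0.29 and 0.05.

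Without WT 522, the median fold change of the 47 genes was -0.71. Every KO mouse then lay below the other 5 WT mice in 39 of the 47 genes (83.0%, against 2.69% of all genes tested), and 41 genes were called lower by limma, against 2.24% of all genes tested. These 41 genes comprised all 14 structural genes and 4 of the 7 factors, Olig1, Sox10, Nkx6-2 and Myrf. The 6 genes not called were Olig2, Nkx2-2, St18, Klk6, Apod and Ninj2. WT 522 was set aside because it was low in these same 47 genes, and leaving it out raises their WT mean and narrows their WT spread. Nothing on genotype is therefore read from the 39 and 41 genes or from the shares beside them. The labels set WT 522 apart in nothing, being a WT female like 3 others. Its mean level of 12 microglial markers was the highest of the 12 mice, at 0.35 on the centred log2 scale, and its total of reads was the lowest of the WT mice. Its mean levels of inhibitory neuron genes (0.18) and Schwann cell genes (0.57) were also the highest of the 12 mice. That of choroid plexus genes (-1.87) was the lowest. The part of any of these in its low levels of the 47 genes was not tested.

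**Figure D4:**
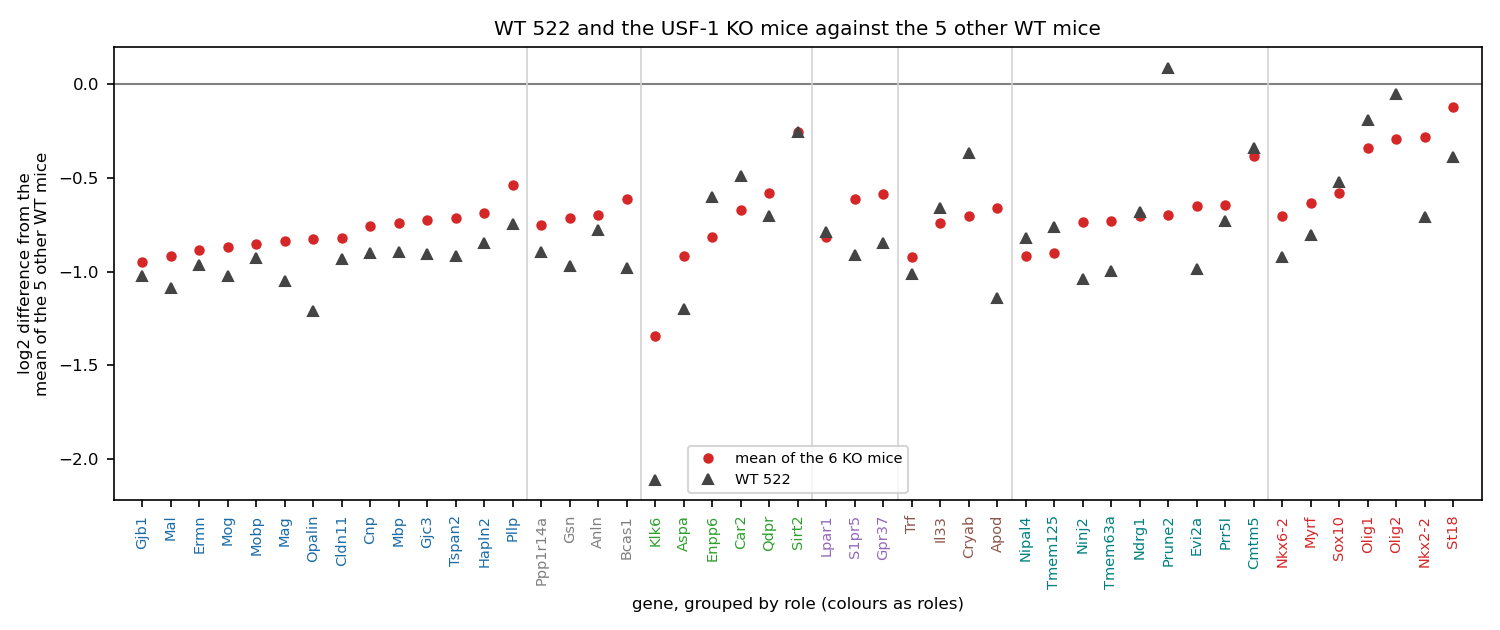
For each of the 47 genes, grouped by role, the log2 level of WT 522 (triangles) and the mean of the 6 KO mice (circles) is drawn relative to the average of the remaining 5 WT animals. Both are lower for the structural genes at the left, by 0.93 and 0.82 in the median, and the triangle of Prune2, at 0.09, lies far above its circle.

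To set the common movement aside, the level of each gene was taken relative to the mean of the other 46 genes in the same mouse. On this scale 0 of the 47 genes was free of overlap between the 12 mice. Of all genes tested, measured against the mean of the 47, 2% were higher and 0.0384% lower in every KO mouse. Without WT 522, the relative level was higher in every KO mouse for Olig1, Olig2 and Sirt2, against 63.8% of all genes, and lower in every KO mouse for Trf, against 0.0494%. Nothing is read from either count. For Olig2 it lay between 0.11 and 0.59 in KO mice and at 0.00 or below in those 5 WT mice, and in WT 522 it was 0.64. For Trf it lay between -0.29 and -0.12 in KO mice and at -0.06 or above in those 5 WT mice, and in WT 522 it was -0.17. The relative levels of WT 522 were therefore on the side of the KO mice for both genes.

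Females and males were unequally divided between the genotypes, so sex was also examined. With both terms in the limma fit, 0 of the 47 genes differed between the sexes (0 also at an unadjusted p under 0.05, and 0 by edgeR and DESeq2), against 0.0549% of all genes tested and 6.45% at an unadjusted p under 0.05. The interaction of genotype and sex passed in 0 of the 47 genes (0 at an unadjusted p under 0.05, against 3.45% of all genes, and 0 by edgeR and DESeq2). The KO mean was below the WT mean in 47 of 47 genes within females and in 46 of 47 within males, St18 being the exception. With sex as a covariate, Prune2 (adjusted p = 0.00768), Tmem125 (0.0200) and Car2 (0.0442) still passed, and Cryab (0.0575) did not, against 0.472% of all genes called lower in that fit. Within females alone, 4 WT against 2 KO mice, 0 of the 47 genes passed, against 0.022% of all genes called lower, and 9 were lower at an unadjusted p under 0.05, against 3.1%. Within males alone, 2 against 4, Gsn passed, against 0.0274%, and 45 were lower at an unadjusted p under 0.05, against 5.93%. WT 522 is a female, so the fit within males leaves it out and the fit within females keeps it. The counts of these fits are therefore no comparison of the sexes.

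A further 40 genes of oligodendrocytes and myelin that are not among the 47 were read from the same fit. All 40 had a negative log2 fold change, with a median of -0.39, and 6 fell at an adjusted p under 0.05 in limma, against 0.741% of all genes tested. The count was 5 with edgeR (0.697% of all genes), 27 with DESeq2 (2.86%) and 28 in limma without WT 522 (2.24%). Ugt8a, which makes the myelin lipid galactosylceramide, had a fold change of -0.90 (SE 0.16, limma adjusted p = 0.0167), and its lowest WT mouse, WT 522 at 954, lay below KO 488 at 1019.6. Slc45a3, a sugar transporter, had a fold change of -1.42 (SE 0.28, limma adjusted p = 0.0301), from 18.2 to 42.4 in WT mice and from 4.85 to 17.5 in KO mice. Omg, a glycoprotein of myelin and neurons, was lower by less but without overlap, from 2214 to 2738 in WT mice and from 1963 to 2160.5 in KO mice (log2 fold change -0.27, SE 0.05, limma adjusted p = 0.0173). Adamts4 (-0.80), Hhip (-0.70) and Plxnb3 (-0.57) also passed. Adamts4 lies close to the targeted gene on chromosome 1, at 171250421 to 171260637, with Usf1 at 171411313 to 171419142. The part of this position in the fold change of Adamts4 was not tested.

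Markers of oligodendrocyte precursors differed by less. Of 16 such genes, 14 had a negative log2 fold change, with a median of -0.22, and 0 passed the limma test or edgeR. At an unadjusted p under 0.05 in limma, 7 were lower, against 7.6% of all genes, and 0 higher, against 5.92%. DESeq2 called 3 lower, against 2.86% of all genes. The lowest fold change of the list was that of Tcf7l2, -0.46 (SE 0.58). It varied widely between mice, from 102 to 672 in WT mice and from 87.4 to 893 in KO mice. The precursor receptor Pdgfra ranged from 1152 to 1469.9 in WT mice and from 924 to 1311 in KO mice (log2 fold change -0.23, SE 0.08), and the proteoglycan Cspg4 had a fold change of -0.06 (SE 0.08). Gpr17, a receptor of cells that are about to mature, stood at -0.35 (SE 0.09, limma adjusted p = 0.0779). In the mean centred level of these genes, WT 522 lay at 0.09, between -0.01 and 0.28 of the other WT mice. Single genes differed. WT 522 held the highest WT value for Pdgfra, Cspg4 (896), Ptprz1, Cacng4, Tnr, Matn4 and Sox6. It held the lowest WT value for Bmp4 (39.8) and Neu4 (221.5).

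**Figure D5:**
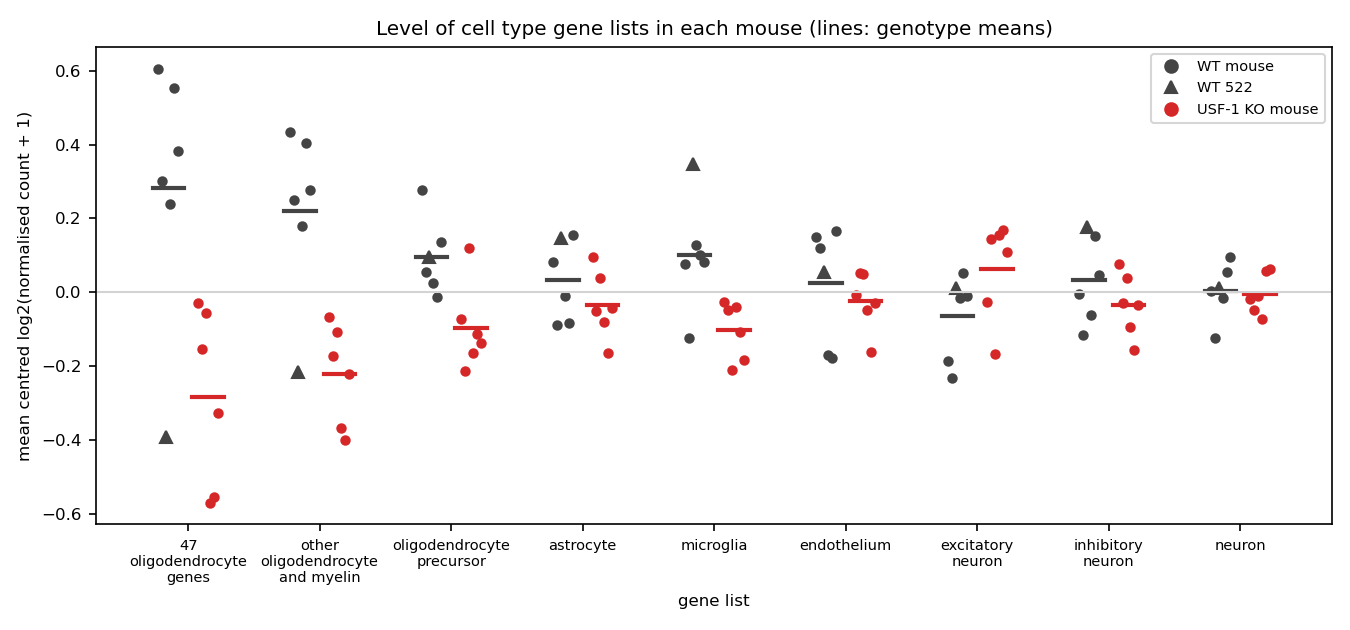
Mean centred log2(normalised count + 1) over the genes of each list in each WT mouse (dark, WT 522 as a triangle) and each USF-1 KO mouse (red), with lines at the genotype means. The 47 genes and the further oligodendrocyte genes separate the KO mice from 5 WT mice, with WT 522 at -0.39 and -0.22, whereas the astrocyte, endothelial and neuronal lists overlap. The microglial list also separates the KO mice from 5 WT mice, with WT 493 at -0.12 among the KO mice.

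Lists of other cell types overlapped between the genotypes, and 0 of their genes passed in limma or edgeR, while DESeq2 called 1 astrocyte, 2 microglial and 5 choroid plexus genes, all lower. DESeq2 called 2.86% of all genes lower. The median log2 fold change was -0.02 over 12 astrocyte genes (1 at an unadjusted p under 0.05), 10 endothelial genes (2) and 10 general neuronal genes (1). It was -0.03 over 10 genes of inhibitory neurons (2), 10 leptomeningeal genes (0) and the 3 of 6 Schwann cell genes that were tested (1). The 10 genes of excitatory neurons had a median of 0.13, with 9 of 10 positive and 1 at an unadjusted p under 0.05. The 12 microglial genes had a median of -0.21, with 12 of 12 negative and 8 lower at an unadjusted p under 0.05. Of all genes tested, 7.6% were lower and 5.92% higher at that limit. In the mean centred level of the microglial genes, the overlap came through WT 493 alone, at -0.12. The other 5 WT mice lay between 0.08 and 0.35 and the KO mice between -0.21 and -0.02. The summed normalised count of the microglial genes ran from 9779 to 13434 in WT mice and from 9157 to 10303 in KO mice, and their part in the difference of the 47 genes was not tested. The 10 choroid plexus genes, with 0 at an unadjusted p under 0.05, stood far above the other mice in WT 490 and WT 493, with summed counts up to 166304 in WT mice and between 1001 and 2829 in KO mice. Without WT 490 and WT 493, all 47 oligodendrocyte genes kept a negative fold change, with a median of -0.49, and Prune2 alone passed the limma test, against 0.264% of all genes called lower.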

How the data were processed

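Of the sequenced hippocampi, 6 were WT and 6 USF-1 KO, and all 12 columns of the table were used. The deposited signal is the number of reads on a gene after division by the library's size factor, as DESeq2 computes it. The authors aligned reads with STAR and used DESeq2, and the submitters' processing notes name STAR 2.5.0a, edgeR 3.22.2 and the build mm10. The counter and its use of strand are not given in the sources used here. In each library 100% of the values were whole multiples of 1 step within 0.001, so the reads could be recovered. Of 55487 genes, 54821 had the coordinates of GENCODE M21, which gave exon lengths and shared exon bases.

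Genes with a mean of at least 10 were compared with limma 3.58.1 (R 4.3.3), two-sided, with genotype as the sole term and a trend of variance on mean, on log2(normalised count + 1). P-values were adjusted by Benjamini-Hochberg over all genes tested, with a threshold of 0.05. The fit was tested on simulated counts. The labels do not say whether the libraries came from separate litters, and p-values measure the spread between these mice. Alternatives were other pseudocounts (0.5, 5), no limit on the mean or 50, quantile normalisation, libraries rescaled to the same total, sex as a covariate, no trend, edgeR 4.0.16 and DESeq2 1.42.0 on recovered reads, each mouse left out in turn, and a threshold of 0.1. Leaving out WT 490 and WT 493 together, and the fits within each sex, were added after seeing the data. The 47 genes, the lists and the tests were chosen with earlier results of these data known, so no test over a list was made. Described in full were genes past the threshold, the 7 factors, Mbp, Mag, Mog, Mobp, Cnp, Cldn11, Mal and the 5 genes with the largest departure in each direction, and of genes outside the 47 those of the lists that passed or define a cell type. Cmtm5, Lpar1, Pllp and Gpr17 were added after their values were seen. Results of some genes of the lists are not reported here. Plots were drawn with matplotlib 3.10.9.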

Additional observations from a re-analysis of the deposited data

Results flagged for a closer look

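In 96 groups of 6 mice, that is, each of the 47 genes and Usf1 in each genotype, Dixon's ratio of the largest end gap to the range was compared with its 95% critical value. The ratio was taken on normalised counts, not on log2 values. A mouse stood apart in 2 groups, where chance alone gives about 4.8. The groups are not independent, since WT 522 was the lowest WT mouse in 44 of the 47 genes. Nothing is therefore read from 2 against 4.8. WT 522 had a normalised count of 3385 for Mal, whereas the remaining 5 WT mice had 6291 to 8021. WT 493 had 842 for Usf1, whereas the remaining 5 had 1425 to 1583, and it was still far above the highest KO mouse at 163.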

How the results depend on the processing

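The median fold change of the 47 genes stayed between -0.72 and -0.49 and the factors remained above the structural genes under the alternatives run. St18 reversed in males only (0.027). No paired analysis was possible because nothing in the labels ties a WT mouse to a KO mouse. The number of the 47 genes lower in KO mice, 4, became 2 without the trend, 38 with DESeq2, 17 at a threshold of 0.1, 1 without WT 490 and WT 493, 0 in females only (9 at an unadjusted p under 0.05 in limma) and 1 in males only, and ran from 1 to 41 when each mouse was left out. Among all genes, the 135 lower became 86 with sex as a covariate, 481 with DESeq2, 277 at 0.1, 48 without WT 490 and WT 493, 4 in females and 5 in males, and 55 to 407 with each mouse left out. The 29 higher became 16 without the limit on the mean, 12 with sex as a covariate, 15 without the trend, 130 with DESeq2, 66 at 0.1, 11 without WT 490 and WT 493, 0 in females and 1 in males, and 9 to 108 with each mouse left out. The causes were not tested, apart from the fewer mice in some. The scalings moved the median of all genes by less than 0.02. Klk6 and Ninj2, with few reads, were not tested at a mean of at least 50.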
